A study of Homo sapiens with 12 samples.

Results

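The nuclear-encoded subunits of the mitochondrial respiratory chain were described across LNCaP and 22Rv1 prostate cancer (PCa) cells with and without a piRNA mimic. Members were chosen by gene symbol alone: NDUFA, NDUFB, NDUFC, NDUFS and NDUFV genes for complex I, SDHA to SDHD for complex II, the UQCR genes and CYC1 for complex III, the ubiquitous COX subunits for complex IV, and the ATP5 subunit genes for complex V. The rule found 75 of the 60660 genes in the tables, of which 37 belong to complex I, 4 to complex II, 9 to complex III, 10 to complex IV and 15 to complex V. The rule uses names and no measured value.

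The respiratory chain sits in the inner mitochondrial membrane. Complexes I and II take electrons from NADH and succinate, complex III passes them to cytochrome c, complex IV hands them to oxygen, and complex V, the ATP synthase, uses the proton gradient that complexes I, III and IV build to make ATP. Complexes I, III, IV and V are assembled from proteins of both genomes, 13 of them encoded by mitochondrial DNA and the rest by nuclear genes scattered over the chromosomes, whereas complex II is entirely nuclear-encoded. Normal prostate epithelium is known for a metabolism that secretes citrate, and prostate cancer cells for oxidising it.

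mRNA was sequenced from 12 libraries, 3 in each of 4 groups. LNCaP cells, which respond to androgen, were first grown from a metastasis in a lymph node, and 22Rv1 cells from a human tumour xenograft that came back after castration of its host. The study lists 22Rv1 as androgen-independent, yet reports that its growth was strongly sensitive to androgen deprivation. It chose both lines as androgen-sensitive. Each line is a single cultured line, so a difference between them is a difference between these lines and not between classes of tumour. Both lines received, by lipofection, either NC-mimic, a negative control RNA, or piR-4447944 mimic, a modified RNA oligo with the sequence of the piRNA piR-4447944, and all 4 groups were kept in androgen-deprived medium with 10% charcoal-stripped serum (CS-FBS). The labels number the libraries but do not say that they came from separate cultures, so p-values measure the spread between these libraries only.

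Depth ran from 12161091 to 22179601 expected counts per library, the estimated reads per gene. The prostate luminal genes HOXB13, FOLH1, KLK2, KLK3, KRT8 and KRT18 were present in every library, while the leukocyte genes PTPRC, LAPTM5 and CD68 reached at most 0.35, 0.12 and 6.02 TPM and the endothelial genes PECAM1 and VWF at most 0.06 and 1.86 TPM, with CDH5 at 0 throughout. Of fibroblast genes, COL1A1 was at 4.23 to 42.9 TPM, and COL1A2 and DCN reached at most 1.55 and 2.89 TPM. One library stood apart. In 22Rv1 mimic replicate 3, the summed TPM (transcripts scaled by effective length to 1000000 per library) of the 13 mitochondrial genome subunits was 35734, against 94629 to 112058 in the other 5 libraries of 22Rv1, and the 22Rv1 mimic results are given with and without it where it moves them. In cultured cells, less of an mRNA per cell and fewer cells that hold it cannot be told apart.

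To show what the starts of these genes share, the promoters of the members were searched for short motifs of factors known to act on respiratory genes. RefSeq gave a window from 250 bases before to 50 bases after the start for 61 of the 75 members. The letters GCATGCGC, the core of the motif of NRF1, a regulator of nuclear respiratory genes, were found on either strand in 13 of the 61 windows (21.3%), against 4.26% of 15843 protein-coding promoters and 3.27% of all 27305 promoters. CCGGAAG, an ETS family motif that GABPA reads, was in 19 member windows (31.1%, against 14.2% of protein-coding and 10.7% of all promoters). ATGGCGG, the core of the YY1 motif, was also in 19 (31.1%, against 7.63% and 5.72%). GGGCGG, the SP1 box, was in 37 (60.7%, against 58.5% and 44.6%). Both strands were searched, and none of these 4 strings contains another. Of the 61, only SDHB and COX6A1 held all 4, and 12 held none, among them NDUFA5, COX7A2 and ATP5MC1. These are matches of letters and not binding sites.

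The promoters of SDHB, COX6A1 and NDUFB4 are shown (RefSeq, GRCh38.p14, the 250 bases before the RefSeq start, 5′ to 3′ on the strand of the gene), because their genes differed most between the lines or hold every motif. Capitals mark matches to the 4 strings above on either strand. SDHB lies on the minus strand at chr1:17054033-17054282, COX6A1 on the plus strand at chr12:120437863-120438112, and NDUFB4 on the plus strand at chr3:120596086-120596335. The ATGGCGG matches of SDHB and COX6A1 lie after the start, at positions 13 to 19 and 14 to 20, and are not in the printed stretch. In NDUFB4 the capitals are 2 overlapping matches to GCATGCGC, one on each strand.
SDHB: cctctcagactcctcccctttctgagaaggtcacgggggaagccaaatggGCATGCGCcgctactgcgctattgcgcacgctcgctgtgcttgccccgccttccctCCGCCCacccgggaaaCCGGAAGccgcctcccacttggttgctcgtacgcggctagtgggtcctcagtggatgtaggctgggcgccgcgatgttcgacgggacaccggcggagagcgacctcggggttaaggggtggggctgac
COX6A1: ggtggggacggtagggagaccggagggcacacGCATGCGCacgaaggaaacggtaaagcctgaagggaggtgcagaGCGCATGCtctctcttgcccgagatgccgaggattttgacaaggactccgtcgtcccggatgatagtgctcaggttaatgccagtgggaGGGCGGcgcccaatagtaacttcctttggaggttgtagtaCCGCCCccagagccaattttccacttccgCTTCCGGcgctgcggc
NDUFB4: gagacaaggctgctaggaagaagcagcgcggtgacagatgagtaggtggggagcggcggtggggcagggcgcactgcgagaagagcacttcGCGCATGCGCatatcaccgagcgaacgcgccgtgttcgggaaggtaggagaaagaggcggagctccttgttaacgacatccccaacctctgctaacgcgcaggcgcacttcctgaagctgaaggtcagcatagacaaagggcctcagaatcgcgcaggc

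The members were abundant and short. All 75 had at least 309 expected counts in every library and passed the filter on low counts in every fit. Their median TPM was 252.5, against 10.72 over the 18720 genes tested, and their median effective length was 486.9 bases, against 1962, with 61 of the 75 under 1000. The genes lay on 22 chromosomes, 3 of them on X.

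Levels per length (TPM) differed widely between subunits that are assembled together. The highest mean over the 12 libraries was that of ATP5MF, the f subunit of the ATP synthase membrane part, at 2068 TPM, and the lowest that of NDUFV3, an accessory subunit of the NADH-oxidising arm of complex I, at 26.9 TPM. Within complex I, NDUFB4, an accessory membrane subunit, was highest at 880.9 TPM. In complex II the span was narrow, from 114.5 TPM for SDHA, the flavoprotein, to 182.5 TPM for SDHC, a membrane anchor. Complex III ran from 62.8 TPM for UQCRFS1, the Rieske iron-sulfur protein, to 1049 TPM for UQCRH, the hinge protein. Complex IV ran from 116.5 TPM for COX7B to 1442 TPM for COX6A1, both small nuclear subunits. Complex V ran from 46.2 TPM for ATP5F1E, the epsilon subunit of the catalytic head, to that of ATP5MF. The median effective length behind these TPM was 40.4 bases for ATP5ME, 63.4 for NDUFB1 and 92.6 for ATP5MF, the shortest of the members, and the TPM of such short genes rest on the estimated length.

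The first comparison asked how the members stood in the 2 lines without the piRNA, in the NC-mimic libraries. More members were higher in 22Rv1 than lower: 37 of 75 had an adjusted p under 0.05 and were higher, where 30.9% of all 17497 genes tested were, and 5 were lower, where 27.5% of all genes were (edgeR quasi-likelihood test, Benjamini-Hochberg adjustment over all genes). The median log2 fold change of the members was 0.35, against 0.01 over all genes, and 54 of 75 were above 0. All 5 lower members belonged to complex I, which also held 17 of the 37 higher ones. Complex II had 3 of 4 higher, complex III 2 of 9, complex IV 7 of 10 and complex V 8 of 15. The counts depended on the test and on 1 library. By limma on log2(TPM + 1), where both the unit and the test differ, 28 were higher and 8 lower, against 23.7% and 28.7% of all genes. Without 22Rv1 NC-mimic replicate 3, 38 were higher and 11 lower, of which 7 were of complex I, against 33.7% and 32.5% of all genes. DESeq2 called 38 higher and 8 lower, against 31.5% and 28.2%. The lower members that limma, DESeq2 or the smaller set of libraries added outside complex I were ATP5F1E, ATP5MC3, UQCR11 and UQCRQ.

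**Figure D1:**
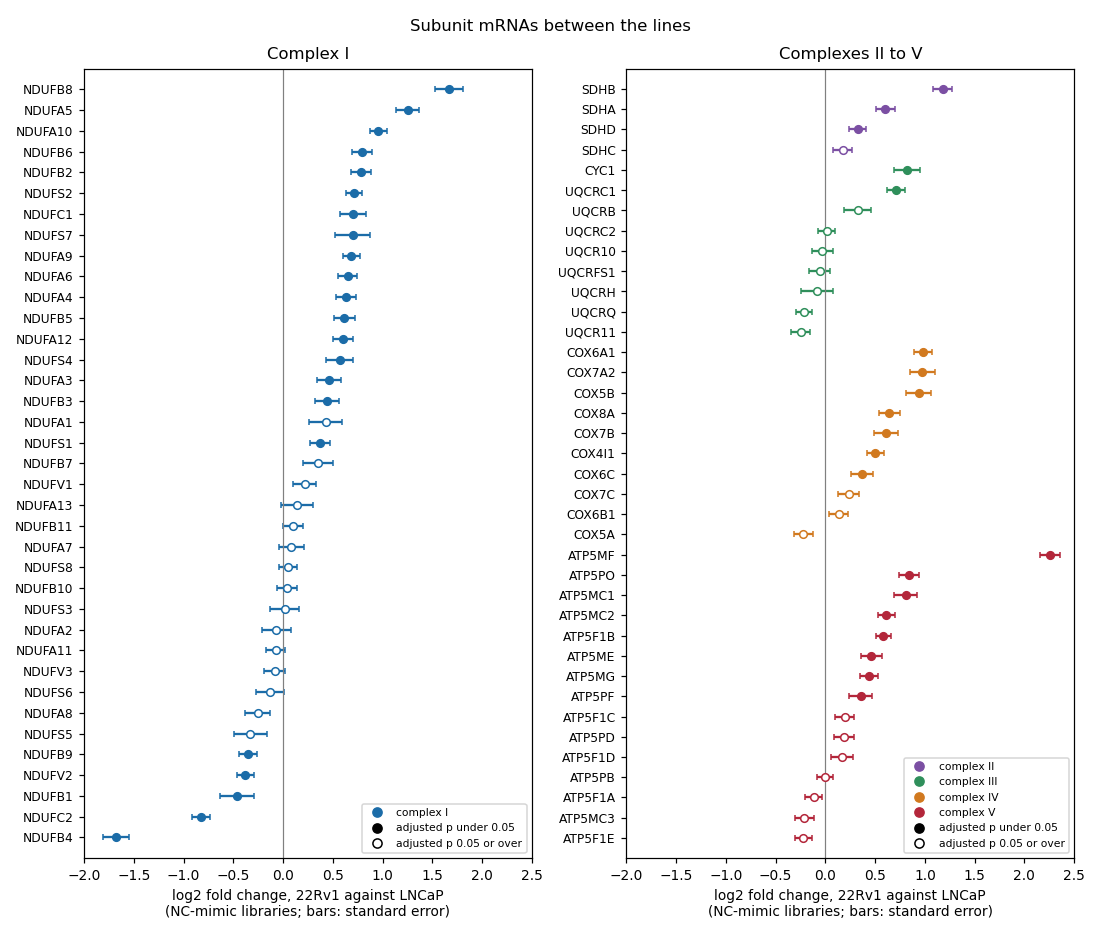
Log2 fold change of each of the 75 members in 22Rv1 against LNCaP, NC-mimic libraries (x axis; bars are standard errors, filled points have an adjusted p under 0.05), by complex. NDUFB4 at -1.68 and ATP5MF at 2.26 lie at the ends, and the lower filled points are all of complex I.

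Among the subunits of the electron entry, NDUFB4 differed most. Its CPM (counts per 1000000 of library size, scaled by TMM within the fit) were 396.3, 463.1 and 398.4 in the 3 LNCaP libraries and 129.7, 112.5 and 151.4 in the 3 of 22Rv1. Every LNCaP library was thus above every 22Rv1 library, by a log2 fold change of -1.68 ± 0.13 (SE, n = 3 and 3), or 3.20-fold lower in 22Rv1, with an edgeR adjusted p of 2.26e-05. NDUFB4 (ENSG00000065518.8, chromosome 3, 120596328 to 120602507, hg38) went from 1387 ± 140 TPM in LNCaP, the highest of complex I, to 422.7 ± 64.7 TPM in 22Rv1 (SD, n = 3 each). NDUFC2, another membrane-arm subunit, was 97.1, 93.6 and 99.7 CPM in LNCaP and 52.1, 56.2 and 55.8 CPM in 22Rv1, a log2 fold change of -0.82 ± 0.09 (edgeR adjusted p = 0.000122).

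The other 3 lower members were closer. NDUFV2, an iron-sulfur protein of the NADH-oxidising arm, had a log2 fold change of -0.38 ± 0.09 and NDUFB9 one of -0.36 ± 0.09, with edgeR adjusted p-values of 0.00608 and 0.00995. NDUFB1 stood at -0.46 ± 0.17 (edgeR adjusted p = 0.0459). This last call rested on the choice of libraries, since it was lost without any 1 of LNCaP replicates 1, 2 and 3 or 22Rv1 replicate 2.

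NDUFB8, a membrane-arm subunit whose protein is commonly used to follow complex I, moved the other way. It was 45.8, 37.2 and 46.4 CPM in LNCaP and 117.5, 137.9 and 155.1 CPM in 22Rv1, with no overlap between the lines, a log2 fold change of 1.67 ± 0.14 (edgeR adjusted p = 3.13e-05). NDUFA5, of the peripheral arm, rose from 78.9, 99.8 and 76.6 CPM to 204.2, 204.9 and 199.3 CPM, a log2 fold change of 1.25 ± 0.12. Thus 2 accessory subunits of the same membrane arm, NDUFB4 and NDUFB8, differed between the lines by more than 3-fold in opposite directions. The core subunit NDUFS1, the largest iron-sulfur protein of complex I, was higher by 0.37 ± 0.10 (edgeR adjusted p = 0.0118), and NDUFV1, which binds NADH, did not pass at 0.22 ± 0.11 (edgeR adjusted p = 0.133). NDUFA4, named for complex I but known as a subunit associated with complex IV, was higher by 0.63 ± 0.10.

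In complex II, SDHB, the iron-sulfur subunit of succinate dehydrogenase, was 43.1, 41.6 and 43.97 CPM in LNCaP and 96.8, 92.0 and 102.7 CPM in 22Rv1. The lines did not overlap, and the log2 fold change was 1.18 ± 0.09 (edgeR adjusted p = 2.35e-05). SDHA was higher by 0.60 ± 0.09 and SDHD by 0.33 ± 0.09, while SDHC did not pass (0.17 ± 0.10, edgeR adjusted p = 0.151). SDHA has 3 near-identical pseudogene copies, to which 16% of the pooled counts of LNCaP NC-mimic and 10.9% of those of 22Rv1 NC-mimic were given, so its level depends on how shared reads were divided. Summing the copies left the counts of called members in the NC-mimic libraries as they were. In the mimic libraries it raised the higher members from 22 to 23 by adding SDHA, where 28.2% of all genes were higher. The copies took 15.6% in 22Rv1 mimic, so the mimic effect on SDHA there depends on the same division of reads.

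Complex III held the fewest differences. CYC1, cytochrome c1, was higher in 22Rv1 by 0.82 ± 0.13 and UQCRC1, a core protein, by 0.71 ± 0.09 (edgeR adjusted p = 0.000842 and 0.000303). UQCRFS1, at -0.06 ± 0.11, and the other 6 members did not pass. The median of the complex was -0.03.

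Complex IV was higher in 22Rv1 in 7 of 10 members. COX6A1 was 209.2, 195.2 and 226.1 CPM in LNCaP and 407.1, 414.4 and 420.6 CPM in 22Rv1, a log2 fold change of 0.98 ± 0.09 (edgeR adjusted p = 5.13e-05). COX7A2 rose by nearly the same size, 0.98 ± 0.12, from 75.4 to 80.0 CPM in LNCaP to 136.7 to 182.2 CPM in 22Rv1. COX4I1, the largest nuclear subunit of the complex, was higher by 0.50 ± 0.09. COX5A was below 0 at -0.22 ± 0.09 and did not pass (edgeR adjusted p = 0.0709), although its 3 libraries of each line did not overlap.

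Complex V held the widest single difference. ATP5MF (ENSG00000241468.8, chromosome 7, 99448475 to 99466186, hg38) was 54.4, 49.9 and 59.8 CPM in LNCaP and 259.8, 272.7 and 251.7 CPM in 22Rv1. That is a log2 fold change of 2.26 ± 0.10, or 4.78-fold, with an edgeR adjusted p of 1.49e-06. A readthrough gene that joins ATP5MF to its neighbour PTCD1 took 29.7% of the counts of the pair in LNCaP NC-mimic and 9.49% in 22Rv1 NC-mimic. Counts summed over both still left 37 members higher, ATP5MF among them, and 5 lower. The size of the ATP5MF difference depends on how shared reads were divided, and its fold change on summed counts is not given.

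ATP5F1B, the catalytic beta subunit, was the most counted of the named members. It stood at 1311, 1313 and 1323 CPM in LNCaP and 1986, 1928 and 2000 CPM in 22Rv1, a log2 fold change of 0.58 ± 0.07 (edgeR adjusted p = 0.000264). ATP5F1A, the alpha subunit that alternates with beta in the head, did not pass at -0.12 ± 0.08 (edgeR adjusted p = 0.247). The c subunit of the rotor ring is encoded by 3 genes that give the same mature protein. ATP5MC1 was higher in 22Rv1 by 0.81 ± 0.12 and ATP5MC2 by 0.61 ± 0.09, and ATP5MC3 was -0.21 ± 0.10 and did not pass (edgeR adjusted p = 0.0939). In TPM, ATP5MC2 was highest of the 3 in both lines, with 584.1 ± 19.0 in LNCaP and 861.8 ± 53.4 in 22Rv1, and ATP5MC1 and ATP5MC3 were near each other in LNCaP, at 240.5 ± 42.7 and 226.0 ± 11 (SD, n = 3).

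**Figure D2:**
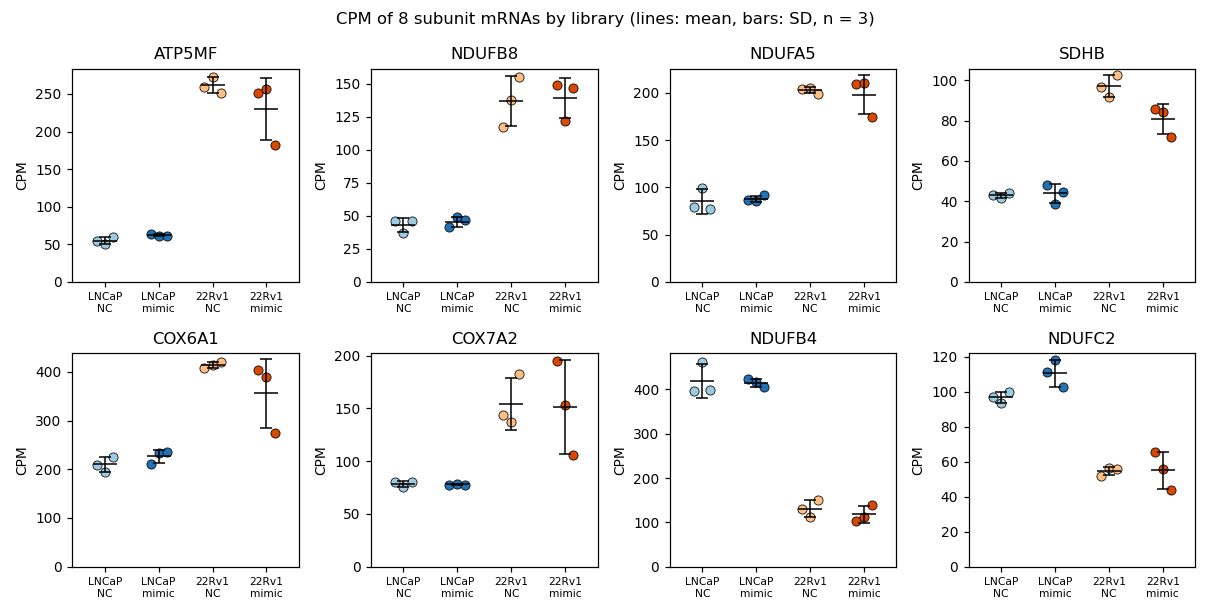
CPM (y axis, from 0) of 8 members in each library by group; lines are means and bars SD (n = 3). ATP5MF, NDUFB8, NDUFA5, SDHB, COX6A1 and COX7A2 are higher in every 22Rv1 library and NDUFB4 and NDUFC2 lower, with and without the mimic.

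Summed over a complex and given per length, the members of complex V were 6803, 6795 and 6844 TPM in the LNCaP NC-mimic libraries and 11193, 10873 and 10731 TPM in those of 22Rv1, a ratio of 1.60. ATP5MF alone went from 866.5 ± 123 to 3507 ± 97.2 TPM (SD, n = 3). The ratio was 1.34 for complex II and for complex IV, 0.98 for complex I and 0.99 for complex III. In complex I, the sum hides members that moved in both directions. All 75 together made up 2.59 to 2.7% of the TPM in LNCaP NC-mimic and 3.18 to 3.33% in 22Rv1 NC-mimic, without overlap. A sum over members carries no test here.

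**Figure D3:**
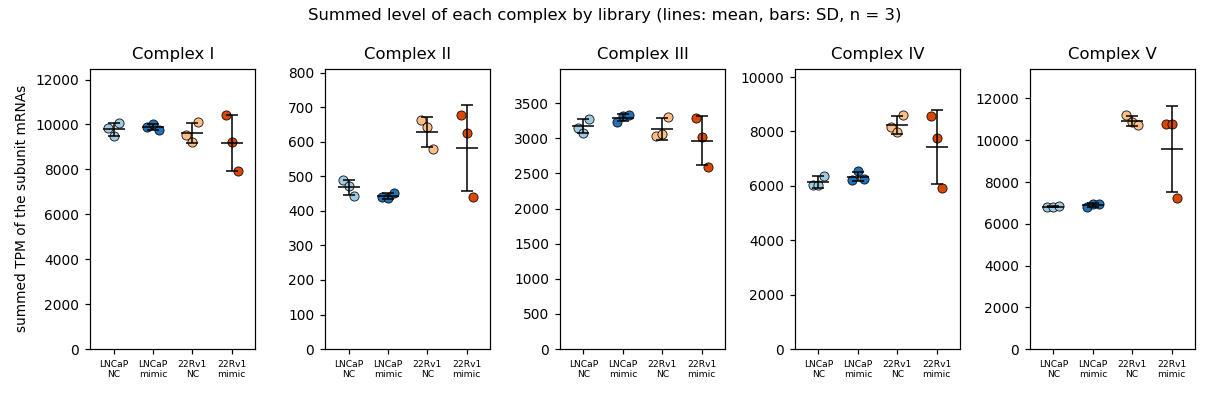
Summed TPM of the members of each complex (y axis, from 0) in each library by group; lines are means and bars SD (n = 3). Complex V lies between 6795 and 6969 TPM in every LNCaP library and between 7226 and 11193 TPM in 22Rv1, where the lowest point is mimic replicate 3.

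The piR-4447944 mimic libraries give the same comparison of lines in other libraries. There, 22 members were higher in 22Rv1, where 28.2% of the 17283 genes tested were, and 11 were lower, where 24.2% were (edgeR, adjusted p under 0.05). Of the 37 members higher with NC-mimic, 22 were called again and 35 kept their direction. Of the 5 lower, 4 were called again and all 5 kept their direction. Without LNCaP mimic replicate 1 or 2, 7 were lower, where 17.4% and 17.1% of all genes were. Without 22Rv1 mimic replicate 3, the counts were 36 higher and 17 lower, where 35.4% and 34.0% of all genes were. In that setting 33 of the 37 and 5 of the 5 were called again. NDUFB4 was 423.7, 416.4 and 404.8 CPM in LNCaP and 102.9, 112.6 and 138.6 CPM in 22Rv1 in these libraries, a log2 fold change of -1.81 ± 0.13. ATP5MF was 64.0, 61.2 and 61.5 CPM in LNCaP and 250.9, 256.3 and 182.3 CPM in 22Rv1, a log2 fold change of 1.89 ± 0.15. Members called lower here included COX5A, ATP5MC3, ATP5F1E and UQCRH, so with these libraries the lower members were not confined to complex I.

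Other genes of the pathway were read beside the members. Of the 51 assembly factors, proteins that help to build the complexes without staying in them, 14 were higher and 10 lower in 22Rv1 with NC-mimic (edgeR, adjusted p under 0.05), a smaller share in each direction than the 30.9% and 27.5% of all genes, against which the lists that follow are to be read as well. Their median log2 fold change was 0.11. FOXRED1, needed for complex I, was highest at 1.96 ± 0.18, followed by UQCC1, of complex III, at 1.28 ± 0.10. TIMMDC1, another complex I factor, was lowest at -0.95 ± 0.09, then NDUFAF8 at -0.84 ± 0.15. Of 12 biogenesis regulators tested, 8 were higher and 2 lower. The higher ones included NRF1 at 0.58 ± 0.14, YY1 at 0.63 ± 0.09 and GABPA at 0.78 ± 0.13, 3 of the factors whose motifs were searched above, and PPARGC1B, a coactivator, at 0.97 ± 0.12. TFAM, which packs and transcribes mitochondrial DNA, was lower at -1.06 ± 0.10, and MYC at -0.44 ± 0.12. Of the 13 mitochondrial genome subunits, 7 were higher and none lower by this test, with a median of 0.35, that of the nuclear members. MT-ND6 led at 0.79 ± 0.15.

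Of 8 subunits and isoforms outside the rule that were tested, 2 were higher and 2 lower. CYCS, cytochrome c itself, was 272.1, 287.2 and 272.8 CPM in LNCaP and 431.9, 430.1 and 598.1 CPM in 22Rv1, a log2 fold change of 0.81 ± 0.14. NDUFA4L2, an isoform of NDUFA4 known to rise in low oxygen, was between 1.5 and 2.13 CPM in LNCaP and at 33.2, 84.0 and 326.3 CPM in 22Rv1, the widest spread within a group among these genes. COX7B2, an isoform of COX7B, was between 1.66 and 2.77 CPM in LNCaP and had no counts in any of the 3 libraries of 22Rv1. COX7A2L, which takes part in joining complexes III and IV, was lower by 0.46 on the log2 scale. The 84 cytosolic ribosomal proteins, other short and abundant mRNAs, had 16 higher and 22 lower and a median of -0.10.

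Where a promoter window was given, GCATGCGC was in 9 of the 30 members higher in 22Rv1 (30.0%) and in 4 of the 31 others (12.9%), and NDUFB4, the member that was lowest in 22Rv1, held it as well. CCGGAAG and ATGGCGG were each in 10 of 30 (33.3%) and 9 of 31 (29.0%), and GGGCGG in 16 of 30 (53.3%) and 21 of 31 (67.7%). These shares carry no test.

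The study's own comparison was that of the mimic with NC-mimic within a line. In LNCaP, no member had an adjusted p under 0.05 by edgeR, DESeq2 or limma on TPM. By edgeR, 8 had an unadjusted p under 0.05, where 433 of all 16244 genes tested did. Over all genes the lowest edgeR adjusted p was 0.193. The study's rule, an unadjusted p under 0.05 and a log2 fold change beyond 0.2, was set on shrunken DESeq2 fold changes. Applied to edgeR fold changes, it called 4 members higher, where 1.38% of the 16244 genes tested were, and none lower, where 0.843% were. With shrunken DESeq2 fold changes no member met it in LNCaP, where 0.0123% of genes were higher and 0.00616% lower. In 22Rv1, by edgeR, 0 members were higher, where 0.799% of 16898 genes were, and 2 were lower, where 0.681% were. With shrunken DESeq2 fold changes 2 were lower there as well, where 0.752% of genes were. There too no member had an adjusted p under 0.05 by edgeR, DESeq2 or limma on TPM. By edgeR, 2 had an unadjusted p under 0.05, where 250 of all 16898 genes tested did. The lowest edgeR adjusted p over all genes was 0.999.

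In LNCaP, ATP5ME, the e subunit of the ATP synthase membrane part, was 32.7, 33.2 and 31.9 CPM with NC-mimic and 41.0, 40.7 and 42.9 CPM with the mimic. The groups did not overlap, and the log2 fold change was 0.35 ± 0.08, with an edgeR p of 0.000944 before and 0.999 after adjustment. ATP5ME met the rule without each library in turn, but not with DESeq2's shrunken fold change (0.17) or in limma on TPM (0.12). Its exact permutation p was 0.1, the smallest that 3 against 3 libraries allow.

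The other 3 members that met the rule in LNCaP were of complex I. NDUFA3 was 25.9, 25.3 and 28.6 CPM with NC-mimic and 33.3, 29.5 and 32.6 CPM with the mimic, a log2 fold change of 0.26 ± 0.10 without overlap. NDUFB3 stood at 0.24 ± 0.10 and NDUFB1 at 0.23 ± 0.09, and for both the libraries of the groups overlapped. All 3 are small accessory subunits. Without NC-mimic replicate 3, 12 members met the rule, all higher, where 4.05% of all genes were. Without NC-mimic replicate 1 or mimic replicate 1 there were 2 and 1, where 1.06% and 1.31% were.

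By libraries alone, 11 of the 75 members had all 3 LNCaP mimic libraries above all 3 NC-mimic libraries, where 4.06% of the genes tested did, and 4 had them all below, where 3.89% did. Those above included UQCRB and UQCRQ of complex III, COX5A and COX6C of complex IV and ATP5MF, ATP5MG and ATP5ME of complex V. The 4 below were NDUFA9, NDUFA12, ATP5F1A and ATP5F1B. The alpha and beta subunits of the ATP synthase head were lower by 0.13 and 0.04 on the log2 scale, and neither met the rule. The median of the 75 was 0.04, with 46 above 0, against 0.00 over all genes. This was not particular to the members. The cytosolic ribosomal proteins had a median of 0.04 as well, with 59 of 83 above 0. That of the assembly factors was also 0.04, with 31 of 51 above 0. The mitochondrial genome subunits stood at -0.06, with 10 of 13 below 0.

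In 22Rv1, the members leaned down with the mimic: 67 of 75 were below 0, with a median log2 fold change of -0.16 against -0.01 over all genes. The sum of the 75 was 32585, 31763 and 33327 TPM with NC-mimic and 33730, 31398 and 24115 TPM with the mimic. Mimic replicates 1 and 2 lay near the controls, and replicate 3 lay below every other library of the line. Without replicate 3, 53 of 75 were below 0 and the median was -0.06. Without mimic replicate 1 instead, 73 were below 0 and the median was -0.29.

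The 2 members that met the rule were both of complex I. NDUFV2 was 125.4, 131.9 and 121.9 CPM with NC-mimic and 103.4, 110.4 and 86.2 CPM with the mimic, a log2 fold change of -0.34 ± 0.13 (edgeR unadjusted p = 0.0377), and NDUFB10, of the membrane arm, was 104.7, 110.4 and 121.1 CPM with NC-mimic and 93.9, 88.8 and 86.2 CPM with the mimic, -0.32 ± 0.12 (edgeR unadjusted p = 0.0285). In both, the groups did not overlap. Without mimic replicate 3, NDUFB10 was -0.30 and still met the rule, and NDUFV2 was -0.24 with an edgeR unadjusted p of 0.0501. No member met the rule without NC-mimic replicate 2 or without NC-mimic replicate 3, where 0.39 and 0.422% of all genes were lower by it. Without mimic replicate 2, 1 member was lower by it, where 0.656% of all genes were. With the replicate number as a block, since the replicate 3 libraries of 22Rv1 deviated together, 3 members met the rule, the third being ATP5MC1. All 3 were lower, where 1.25% of all genes were. With the spread estimated over all 12 libraries, 12 members met the rule, all lower, but calls rose over all genes as well. There 2.88% of 18720 genes were lower by the rule and 3.7% higher.

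By libraries alone, 17 of the 75 members had all 3 mimic libraries of 22Rv1 below all 3 NC-mimic libraries, where 4.63% of the genes tested did, and 0 had them all above, where 4.08% did. Without mimic replicate 3, 19 members had the other 2 mimic libraries below all 3 controls, where 10.1% of genes did, and 3 had them above, where 9.53% did. All 17 were among the 19, which added NDUFB4 and NDUFB9. The 17 included ATP5F1A, ATP5F1B, ATP5PB, ATP5PF and ATP5MF of complex V, UQCRC1, UQCRC2 and UQCRFS1 of complex III, COX5A and COX6A1 of complex IV and SDHB. ATP5F1B was 2001, 1956 and 2035 CPM with NC-mimic and 1871, 1912 and 1235 CPM with the mimic, a log2 fold change of -0.26 ± 0.18 that did not meet the rule and was -0.08 ± 0.07 without mimic replicate 3.

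**Figure D4:**
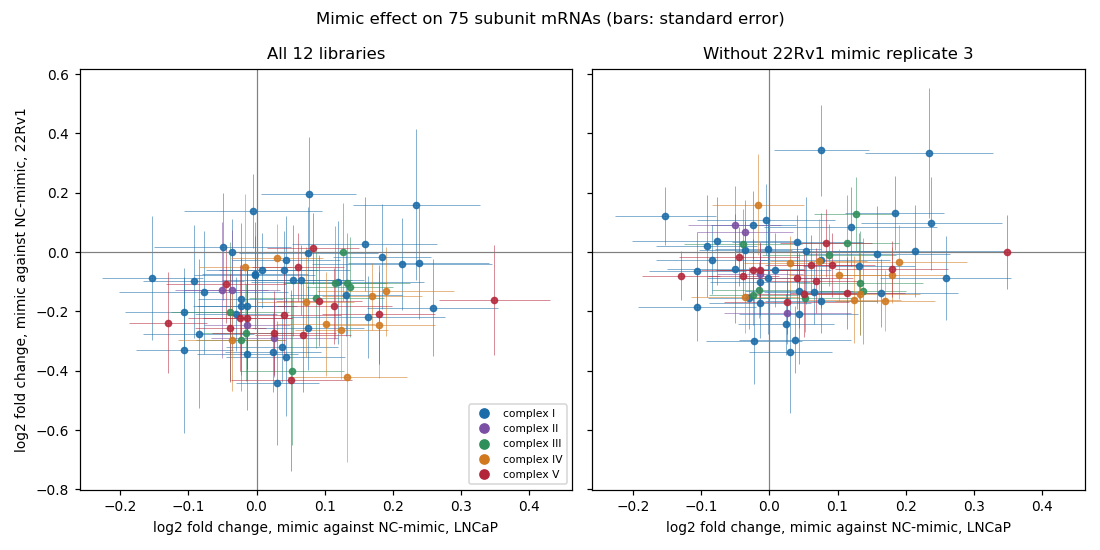
Log2 fold change of each member with the mimic in LNCaP (x axis) and in 22Rv1 (y axis), with standard errors, with all libraries and without 22Rv1 mimic replicate 3. Below the horizontal line lie 67 members in the first panel and 53 in the second.

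The third mimic library of 22Rv1 carried much of this. Deviations were taken per gene from the average of its 3 control values in the same line. The controls therefore lie near 0 by construction. The median deviation of the 75 members was -0.41 (log2 CPM) in mimic replicate 3, -0.12 in replicate 2 and 0.00 in replicate 1. In the 3 controls it was between -0.02 and 0.03. Mimic replicate 3 was the lowest of the 6 libraries of the line for 53 of 75 members (70.7%), and for 27.4% of all genes. The 13 mitochondrial genome subunits were lowest in it without exception, with a median deviation of -1.80, and the assembly factors stood at -0.25. The cytosolic ribosomal proteins were at 0.20 and all genes at 0.01. The 1201 genes no longer than the median member were at 0.03. The members' fall differed by complex, from -0.32 in complex I to -0.62 in complex II. What set this library apart was not tested.

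**Figure D5:**
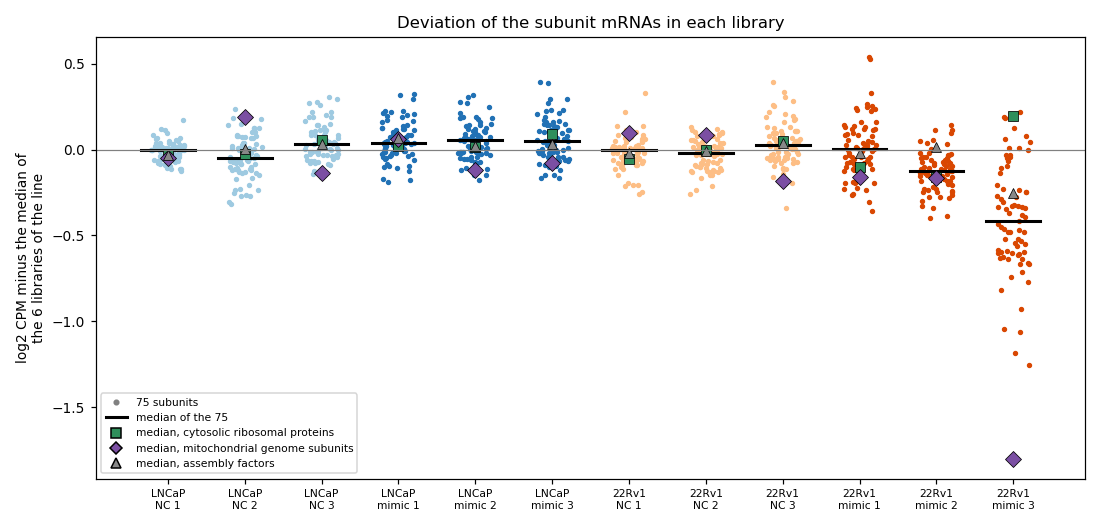
Log2 CPM of each member in each library minus the mean of the 3 NC-mimic libraries of its line (y axis), so that the controls centre on 0 by definition. Black lines are medians of the 75, and symbols are medians of 3 other gene groups. In 22Rv1 mimic replicate 3 the members have a median of -0.41 and the mitochondrial genome subunits one of -1.80, while the ribosomal proteins are at 0.20.

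The medians of the complexes followed the same pattern. With all libraries, the median log2 fold change in 22Rv1 was -0.10 for complex I, -0.19 for complex II, -0.16 for complex III, -0.21 for complex IV and -0.21 for complex V, and without mimic replicate 3 it was -0.05, 0.00, -0.10, -0.08 and -0.06. The mitochondrial genome subunits went from -0.50 to -0.16, and the cytosolic ribosomal proteins from -0.03 to -0.13. Without that library, therefore, the nuclear members were no longer below the ribosomal proteins.

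Whether the mimic acted differently in the lines was tested as an interaction over all 12 libraries. No member had an adjusted p under 0.05 by edgeR, DESeq2 or limma on TPM. By edgeR, 6 had an unadjusted p under 0.05, where 610 of all 18720 genes did. The lowest edgeR adjusted p over all genes was 0.665. By the study's rule, 6 members had a lower mimic effect in 22Rv1, where 1.54% of genes did, and none a higher one, where 1.71% did. They were ATP5ME (-0.51 ± 0.20), NDUFA3 (-0.44 ± 0.18), COX6C (-0.39 ± 0.17), NDUFV2 (-0.36 ± 0.14), NDUFB10 (-0.36 ± 0.14) and COX5A (-0.32 ± 0.12). The count was 11, all lower, with the replicate number as a block, where 2.27% of all genes were lower by the rule. It was 21, all lower, without 22Rv1 mimic replicate 1, where 2.13% were. Without replicate 3 it was 6, then 5 lower, where 2.83% were, and 1, NDUFA9, higher, where 1.95% were. COX6C was the member lost there, at -0.29 ± 0.15. The count was 2 without LNCaP mimic replicate 1 and 3 without LNCaP mimic replicate 2, LNCaP NC-mimic replicate 1 or 22Rv1 NC-mimic replicate 3. In those settings 0.959 to 1.26% of all genes were lower. COX5A was 123.8, 110.8 and 125.7 CPM with NC-mimic and 134.5, 142.3 and 128.4 CPM with the mimic in LNCaP, and 99.3, 110.5 and 103.7 CPM against 92.3, 94.5 and 95.9 CPM in 22Rv1, so that it lay wholly above its controls in one line and wholly below them in the other.

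Averaged over both lines, the mimic moved no member by the study's rule, where 1.54% of the 18720 genes met it (edgeR). By edgeR, 1 member had an unadjusted p under 0.05, where 340 of the 18720 genes did. No member met the rule by DESeq2 or by limma on TPM. Without 22Rv1 NC-mimic replicate 1 or 22Rv1 mimic replicate 3, 1 member met it and was higher, where 0.828% and 0.743% of all genes were. Without 22Rv1 mimic replicate 1 or 2, 2 and 1 met it and were lower, where 0.682% and 0.907% were. The median of the members was -0.05, with 21 of 75 above 0, and 0.00 with 36 above 0 without 22Rv1 mimic replicate 3. NDUFS1, SDHA, UQCRC1, COX4I1 and ATP5F1B, of complexes I to V in turn, had log2 fold changes of -0.02, -0.01, -0.02, 0.03 and -0.04 in LNCaP and of -0.16, -0.24, -0.27, -0.02 and -0.26 in 22Rv1. None of them met the rule in either line by edgeR on the libraries of that line. Without mimic replicate 3 the 22Rv1 values were 0.09, -0.07, -0.13, -0.04 and -0.08, so NDUFS1 changed sign. UQCRC1, whose TPM in LNCaP were 267.6 ± 8.39 with NC-mimic and 227.4 ± 12.5 with the mimic (SD, n = 3), met the rule there by limma on TPM as lower, and in 22Rv1 as lower when all 12 libraries were fitted together.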

How the data were processed

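RNA was sequenced from LNCaP and 22Rv1 cells with NC-mimic or piR-4447944 mimic. Per the labels, the authors aligned reads to hg38 with STAR 2.7.1a and estimated genes with RSEM 1.3.0, and R 4.1.1 and DESeq2 1.34.0 are listed as well. The deposited tables give, per library and gene, an expected count (an estimate that divides shared reads and need not be whole) and a TPM value, the count divided by the effective length and scaled by the authors to a sum of 1000000. A further series-wide TPM table was not used. Groups were taken from the labels.

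Expected counts were rounded, filtered by filterByExpr and scaled by TMM, and tested by the edgeR 4.0.16 quasi-likelihood test in R 4.3.3, each contrast on its own 6 libraries and the interaction and the mean over both lines on all 12. P-values were adjusted by Benjamini-Hochberg over all genes tested. Between the lines a call was an adjusted p under 0.05, and for the mimic the rule of the study's methods was used as well (unadjusted p under 0.05, log2 fold change beyond 0.2). The study set that rule on shrunken DESeq2 fold changes. Here it was applied to edgeR fold changes except where another test is named. CPM are given as scaled within each fit and so differ slightly between contrasts. Deviations of a library used log2(CPM + 0.5). Exact permutation tests were two-sided over 3 against 3 libraries, with 0.1 the smallest p possible. The code was tested on simulated data.

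Alternatives were DESeq2 size factors, other count filters, the DESeq2 1.42.0 Wald test with shrunken fold changes (unshrunk for the interaction), limma 3.58.1 on log2(TPM + 1), all libraries in one fit, summed copies, the replicate number as a block, and leaving out each library. The correlation of the deviations of same-numbered libraries was 0.25, 0.20 and 0.39 in 22Rv1. Mimic replicate 2 correlated with NC-mimic replicate 1 at 0.24, and the replicate 3 libraries ran against replicates 1 and 2 (-0.34 to -0.21). The values thus set replicate 3 of 22Rv1 apart and do not pair replicates 1 and 2 by number. The labels name no shared batch. In LNCaP the same-numbered correlations were 0.06, 0.01 and 0.24, and between the lines 0.02, 0.03 and 0.12.

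Named were a fixed set of members, the 6 higher and 6 lower between the lines with the largest change among those called, members that met the study's rule, the highest and lowest TPM of each complex, the leading genes of each list and members with copies. Other genes, NRF1 and SDHD among them, were named after their values were seen. Members and lists were chosen with earlier results of these data known. Promoters were matched by symbol to RefSeq (GRCh38.p14), gene coordinates come from a GENCODE annotation of hg38, and protein sequences were not used here.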

Additional observations from a re-analysis of the deposited data

Results flagged for a closer look

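For 6 members the test of the difference itself, the edgeR interaction over 12 libraries, gave an unadjusted p under 0.05 between the mimic effects of the lines. It did so for 610 of all 18720 genes, and no member passed after adjustment over all genes. Each of the 6 was lower in 22Rv1 than in LNCaP on the log2 scale. The difference was -0.51 for ATP5ME, -0.44 for NDUFA3, -0.39 for COX6C, -0.36 for NDUFV2, -0.36 for NDUFB10 and -0.32 for COX5A, with unadjusted p-values between 0.0225 and 0.0429. COX6C, a small subunit of complex IV, was 91.6, 96.9 and 99.0 CPM with NC-mimic and 100.3, 103.9 and 109.0 CPM with the mimic in LNCaP, and 118.0, 115.0 and 143.4 CPM against 123.6, 101.1 and 88.7 CPM in 22Rv1. Its groups did not overlap in LNCaP and overlapped in 22Rv1. Without 22Rv1 mimic replicate 3, the difference was -0.29 ± 0.15 and no longer had an unadjusted p under 0.05 (edgeR interaction), and the other 5 still did. Groups of 3 libraries were not tested for single outlying values.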

How the results depend on the processing

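Between the lines, the count of higher members was 28 to 38 under the alternatives on the NC-mimic libraries, within 1.5 times of 37. There 18.7 to 31.5% of all genes were higher. In the mimic libraries 22 members were higher, where 28.2% of all genes were. Lower members were 8 by DESeq2, 8 by limma on TPM and 11 in the mimic libraries. In these settings 28.2, 28.7 and 24.2% of all genes were lower. Leaving out 1 library gave 32 to 38 higher and 4 to 11 lower, where 25.3 to 33.7% and 21.6 to 32.5% of all genes were. Members that met the study's rule in LNCaP were 0 by DESeq2, whose fold changes are shrunk, 1 by limma (UQCRC1, lower) and 1 with all 12 libraries in one fit (ATP5ME, higher). Of all genes, 0.0123% were higher and 0.00616% lower by DESeq2, 1.88% were lower by limma and 0.55% higher in the 1 fit. Without 1 library they were 1 to 12, all higher, where 1.06 to 4.05% of all genes were. In 22Rv1 they were 1 without a count filter and 0 by limma, where 0.721 and 1.02% of all genes were lower. With all libraries in one fit they were 12, all lower, where 2.88% of all genes were lower. Without 1 library they were 0 to 2, where 0.39 to 1.28% of all genes were lower. For the interaction they were 2 without a count filter and 0 by limma, where 1.37 and 1.4% of all genes were lower. Without 1 library they were 2 to 21, where 0.959 to 2.83% of all genes were lower. Over both lines the count was 0 to 2, where 0.0801 to 2.43% of all genes were higher and 0.0962 to 1.15% lower. The causes were not tested.

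With the replicate number as a block, 37 members were higher and 4 lower between the lines, where 28.9% and 26.6% of all genes were. By the rule, 4 were higher in LNCaP, where 1.87% of all genes were. In 22Rv1 3 were lower and for the interaction 11, where 1.25% and 2.27% of all genes were. Over both lines 0 met the rule, where 1.12% of all genes were higher and 0.956% lower. Neither within the lines nor between them did the values pair replicates 1 and 2 by number. In 22Rv1 they set only replicate 3 apart.

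Of 375 values of single members between the lines under the alternatives, 9 lost their call, 6 of them of NDUFB1 and 3 of NDUFS1. Of 60 in LNCaP, 23 lost it, as did 13 of 30 in 22Rv1 and 42 of 120 for the interaction. None of these values changed sign. Limma on TPM moved the median of all genes between the lines from 0.01 to -0.11, and that of the members from 0.35 to 0.20. Summing readthrough genes, and limma and summed copies for the interaction and the mean over lines, and the overlap of the 22Rv1 groups without mimic replicate 3, were chosen after seeing the data. The biological coefficient of variation was 0.0964 within LNCaP and 0.343 within 22Rv1, so smaller mimic effects were detectable in LNCaP.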

Other observations

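In LNCaP, NC-mimic replicate 2 was the lowest of the 6 libraries for 36 of the 75 members (48.0%), and for 20.9% of all genes. It was also the lowest for 38 of the 84 cytosolic ribosomal proteins (45.2%). The share was 23.5% of the assembly factors and 24.6% of the genes no longer than the median member. The counts and the length-scaled values differed in direction between the lines for 2 members, NDUFS3 and NDUFS8.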
